A study of Mus musculus with 106 samples.

Results

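Binding of the farnesoid X receptor (FXR, encoded by Nr1h4) in mouse liver without added ligand was compared between wild-type (WT) and Foxa2-KO animals. The members were all peaks of the 2 FXR ChIP-seq lists from vehicle-treated mice: 7883 peaks in WT and, once 28147 blank entries were dropped, 4284 in the mutant. These 12167 regions are part of 316858 in the 25 peak lists used, and their 4 libraries (2 per genotype) are part of 106 samples in the series.

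FXR is a nuclear receptor for bile acids that works as a heterodimer with RXR, most often on inverted repeats of a short hexamer spaced by a single base. In hepatocytes it switches on the repressor SHP (Nr0b2) and bile acid exporters, and thereby lowers bile acid synthesis. Bile acids are present in the liver at all times, so a liver without synthetic agonist is not a liver without ligand. Foxa2 is a forkhead factor of hepatocytes that can bind its sites in closed chromatin.

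The study concerned, per its title, the role of Foxa2 in ligand-dependent activity of FXR and LXRα, with chromatin, ChIP-seq and RNA assays of WT and Foxa2 mutant livers. These FXR mice were 8 to 12 weeks old and were killed 4 h after dosing. The labels describe agonists given by oral gavage and the series text speaks of injection. Chromatin came from 100 mg of snap-frozen liver. WT mice given vehicle formed the control group, Foxa2-KO mice given vehicle the mutant group. GW4064, the synthetic FXR agonist of this experiment, was given to neither, and the groups that received it (2 libraries per genotype) serve below as comparison lists. The FXR labels name the mutant only as Foxa2-KO. Labels of other assays in the series give it as Foxa2loxP/loxP;Alfp.Cre, a floxed allele removed by a Cre under albumin and alpha-fetoprotein control, so that cells outside the hepatocyte and bile duct lineages would keep the gene. The FXR antibody and the sex of the mice are not given in the sources used here, and RNA levels of Foxa2 and Nr1h4 were not analysed here, so neither the deletion nor the amount of FXR is checked by these lists.

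Each genotype had 1 list, called by the authors with PeakSeq against input, for its 2 libraries together. There is therefore no spread between animals and no test, and every difference below is between 2 lists. Sequencing depth is unknown. FXR binding, the recovery of the mutant libraries and the settings behind each list cannot be told apart as sources of a difference between them. Percentages of peaks carry 95% Wilson intervals, which cover counting over peaks only. The place of a peak in its list (its entry number) was used as its rank and the mutant list was in order of q. The WT list has no q-value and its ordering is not given in the sources used here, so leading, first and best placed mean the place in the list, which need not follow the strength of WT peaks. Peaks of Foxa2, LXR and PPAR ChIP lists (19 lists) met in 215 regions that held at least 1 peak of each of the 3 factors. These are called recurrent regions. The 5 Foxa2 lists, each of 1 library, came from WT mice aged as above, given vehicle, GW4064 or the LXR agonists GW3965 or T09. The 6 LXR lists (vehicle, GW and T09, as labelled) and the 8 PPAR lists (vehicle, GW3965, GW4064 and T09) came from 3-month-old mice, WT and mutant, with no time after dosing given. Each WT LXR list had 1 library and each mutant LXR list 3, and by their labels the mutant LXR lists were cut at a looser false discovery rate. The recurrent regions cover 477.24 kb, and no FXR list was used to define them.

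To show what lay under the WT peaks, the stretches of 6 promoters that WT vehicle peaks covered are printed first, with those of 2 mutant peaks beside them. The genes were chosen after their values were seen: Slc51b, an FXR target that encodes a subunit of a basolateral bile acid exporter, C3, encoding complement component C3, Usp2, a ubiquitin protease with a circadian rhythm, Fasn, encoding fatty acid synthase, and Steap3 (a metalloreductase) and Cnnm3, whose repeats matched best. The mutant examples are Hbb-bh2 (entry 94), a beta-globin gene, and Clec4d (entry 3328), encoding a C-type lectin of myeloid cells, whose stretch matched best among the mutant peaks. Sequences are from RefSeq promoter windows (GRCm38.p6, the assembly that mm10 names) and run 5′ to 3′ on the strand of the gene. Only bases within the peak and before the start site are shown. Capitals mark the 13 bases that match best the inverted repeat AGGTCANTGACCT on either strand.
Slc51b (WT, chr9:65422891-65423023, minus strand): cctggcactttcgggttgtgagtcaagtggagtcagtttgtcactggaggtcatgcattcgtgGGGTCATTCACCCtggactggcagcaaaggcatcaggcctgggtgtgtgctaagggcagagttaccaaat
Steap3 (WT, chr1:120270293-120270442, minus strand): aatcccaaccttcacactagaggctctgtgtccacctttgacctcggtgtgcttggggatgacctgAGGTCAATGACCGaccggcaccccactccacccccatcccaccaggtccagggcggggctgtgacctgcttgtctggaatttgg
Cnnm3 (WT, chr1:36511617-36511681, plus strand): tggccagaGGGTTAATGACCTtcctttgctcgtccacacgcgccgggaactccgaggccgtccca
Fasn (WT, chr11:120824630-120824789, minus strand): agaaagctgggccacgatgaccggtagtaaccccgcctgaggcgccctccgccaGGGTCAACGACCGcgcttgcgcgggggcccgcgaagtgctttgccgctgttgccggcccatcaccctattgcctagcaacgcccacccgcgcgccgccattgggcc
C3 (WT, chr17:57228137-57228338, minus strand): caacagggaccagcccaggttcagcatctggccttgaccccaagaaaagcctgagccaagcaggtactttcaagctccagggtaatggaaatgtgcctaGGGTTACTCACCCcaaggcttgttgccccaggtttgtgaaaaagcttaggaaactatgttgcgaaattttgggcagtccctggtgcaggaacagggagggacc
Usp2 (WT, chr9:44084682-44084908, plus strand): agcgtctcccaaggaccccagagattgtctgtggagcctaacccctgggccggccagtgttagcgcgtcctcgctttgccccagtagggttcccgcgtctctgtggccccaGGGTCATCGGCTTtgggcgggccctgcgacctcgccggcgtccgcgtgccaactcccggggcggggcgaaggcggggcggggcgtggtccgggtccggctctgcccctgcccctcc
Hbb-bh2 (mutant, chr7:103840522-103840688, minus strand): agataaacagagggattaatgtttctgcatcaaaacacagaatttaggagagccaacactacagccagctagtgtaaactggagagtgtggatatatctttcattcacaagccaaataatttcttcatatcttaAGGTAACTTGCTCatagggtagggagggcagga
Clec4d (mutant, chr6:123261857-123262080, plus strand): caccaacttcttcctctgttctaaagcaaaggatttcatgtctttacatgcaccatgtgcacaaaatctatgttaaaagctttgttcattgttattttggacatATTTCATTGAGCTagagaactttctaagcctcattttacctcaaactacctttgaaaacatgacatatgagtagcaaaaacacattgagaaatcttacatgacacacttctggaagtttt

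The capitals of Steap3 matched 11 of the 12 fixed letters, those of Cnnm3 10, those of Slc51b and Fasn 9, and those of C3 and Usp2 8. The Hbb-bh2 stretch matched 7 and the Clec4d stretch 9, as many as those of Slc51b and Fasn, so single stretches do not separate the lists. Over their whole promoter windows, of which the stretches are parts, C3 and Usp2 also had a best match of 8 letters and Hbb-bh2 of 7. The median whole window of the genome held 8, so these matches are no more than most promoters have. Windows reached from 250 bases before to 50 bases after the start site. A match of at least 10 letters was present in 236 of all 21263 windows (1.11%), in 3 of the 42 windows with a WT vehicle peak outside recurrent regions (7.14%, those of Steap3, Cnnm3 and Acot12, an acyl-CoA thioesterase gene whose match lay outside its peak) and in 0 of the 15 with a mutant peak. These WT peaks were entries 866, 4177 and 5572, the last 38 bp wide, and the Fasn peak was entry 4049. Within the first 1000 WT entries 1 of 21 windows had such a match (4.76%). With a WT GW4064 peak 4 of 132 did (3.03%). The hexamer AGGTCA, read on both strands and also contained in the repeat, was in 14.7% of all windows, in 13 of 42 (31.0%) with a WT peak and in 0 of 15 with a mutant peak. With only 15 windows, these counts of 0 are no result about the mutant list. The forkhead motif TGTTTNC was in 18.1% of all windows, 10 of 42 (23.8%) with a WT peak and 3 of 15 (20%) with a mutant peak. A match describes letters in a window and is not evidence of a bound site.

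Few vehicle peaks were found in both genotypes. Of the WT peaks 72 (0.913%, interval 0.726 to 1.15) overlapped a mutant peak by at least 1 base, and 69 mutant peaks (1.61%, 1.27 to 2.03) overlapped a WT peak. Outside recurrent regions 31 peaks of each list did so. With recurrent regions left out of both lists the mutant count was 30, because 1 mutant peak met only a WT peak inside such a region. The overlap lay near the top of both lists. Among the first 50 WT entries 28% were in the mutant list, among entries 51 to 100 12%, among entries 501 to 1000 1%, and beyond entry 2000 about 0.2%. In the mutant list 56% of the first 50 entries were in the WT list and 4% of entries 51 to 100.

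The top of the WT list was found again with ligand. Of its first 50 entries 98% overlapped a peak of WT mice given GW4064, and of entries 51 to 100 96% did. That share was 55% for entries 101 to 200, 22.7% for entries 201 to 500 and 10.2% for entries 501 to 1000, and stayed between 2.4% and 2.9% after that. In the mutant list 58% of the first 50 entries overlapped a peak of mutants given GW4064, but only 4% of entries 51 to 100. In WT 220 of the first 500 peaks were thus listed again with ligand, and in the mutant 37 of the first 500. The lists with GW4064 differ in length, 22705 peaks in WT and 3901 in the mutant. A WT peak therefore had more places to be found again, and the shares of the genotypes are not measured alike. Among the first 100 entries outside recurrent regions, 69 of 72 WT peaks and 11 of 79 mutant peaks overlapped a peak of their own genotype with GW4064.

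**Figure D1:**
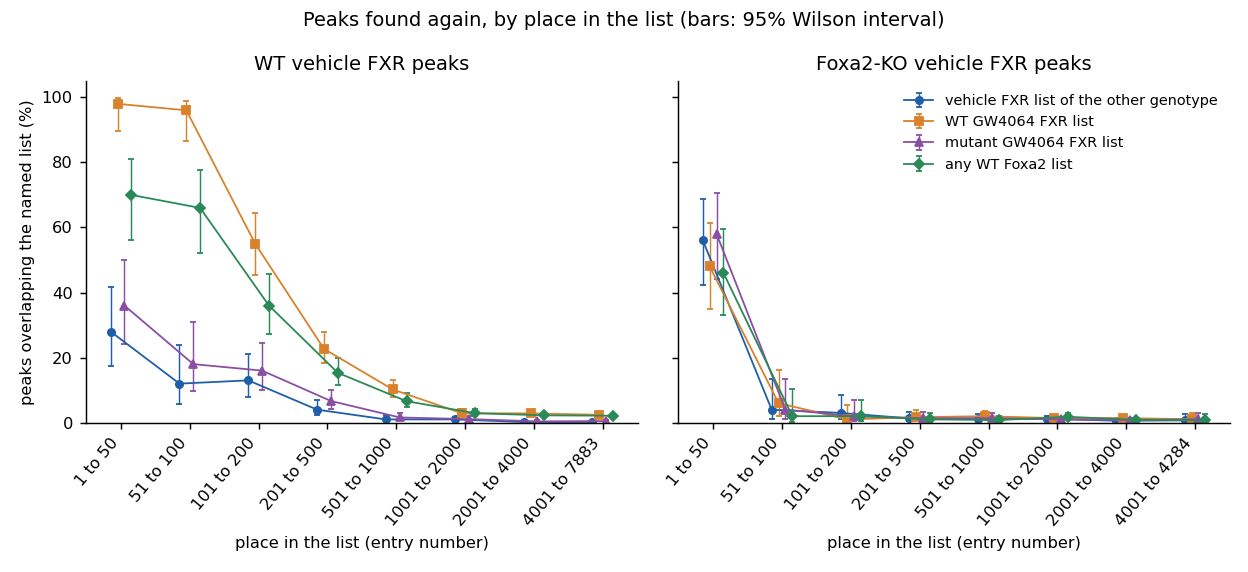
Percent of vehicle FXR peaks (y axis) that overlap each of 4 other lists, in bins of entry number (x axis), for the WT list (left) and the Foxa2-KO list (right), with 95% Wilson intervals. In WT the share found with GW4064 is 98% in the first bin and 10.2% at entries 501 to 1000, while every curve of the mutant list is at 6% or less from entry 51 on.

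Most leading WT peaks outside recurrent regions were listed again in WT with ligand and overlapped no mutant peak. The first 100 entries held 72 such peaks. Of these 69 overlapped a WT peak with GW4064, 45 of them among its first 100 entries and 66 among its first 500, and the centres were a median 10.5 bp apart. In contrast 5 of the 72 overlapped a mutant vehicle peak and 6 a mutant peak with GW4064. The nearest mutant vehicle peak was a median 256.2 kb away, against 176.9 kb for the 6859 WT peaks after entry 1000 outside recurrent regions. By share, leading peaks were more often close: 8 of the 72 (11.1%) had a mutant peak within 10 kb, overlaps included, against 5.61% of the trailing ones, of which 16 overlapped one.

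The first 10 of these peaks show the pattern site by site. Entry 12 (chr2:25472617-25472949) lay 2673 bp from Ptgds, encoding a prostaglandin D synthase, and was entry 9 with GW4064. Entry 13 was in Arhgef7, a guanine nucleotide exchange factor gene, entry 14 was 5221 bp from Slc9a8, encoding a sodium-proton exchanger, and entry 15 was at the start of Zc3h6. With GW4064 they were entries 19, 11 and 12. Entry 17 (chr9:44084682-44084908) covered the Usp2 promoter printed above and was entry 13 with GW4064. Entry 20 lay 1138 bp from Cth, encoding cystathionine gamma-lyase, which makes cysteine, and was again entry 20 with GW4064. The nearest genes of entries 18, 21, 22 and 23 were Ak4 (adenylate kinase 4), Gatd1, Rpp21 (a ribonuclease P subunit) and Il1r1 (an interleukin-1 receptor). None of these 10 peaks overlapped a mutant vehicle peak, and the closest mutant peak was 4938 bp from the Cth site, then 73240 bp from the Slc9a8 site. All 10 were in the WT GW4064 list, and 1, at Rpp21, was in the mutant GW4064 list.

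Both lists began with recurrent regions, which held the first 11 WT entries, the first 7 mutant entries and 20 of the first 50 entries of each list. The first 7 mutant entries lay at 1600014C10Rik (5 of them), in Sfi1 and 21882 bp from Ly6c2, and all 7 overlapped a WT vehicle peak. Only 28 of its 4284 peaks had a q (as the authors gave it, like the enrichment ratios below) of at most 0.001. Of these 28, 16 were in recurrent regions, 21 overlapped a WT vehicle peak, 24 a PPAR peak and 20 an LXR peak, and 25 were at one or more of these places. Another 37 brought the number at q of 0.01 or below to 65, and 4219 (98.5%) had a q between 0.0101 and 0.015.

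Outside recurrent regions the first 10 mutant peaks were mostly far from genes. Entries 8, 9 and 13 made a cluster at chr7:94096156-94100430, about 912 to 916 kb from the nearest gene, Gm15501, with ratios over input of 4.684, 4.684 and 2.767. Entries 8 and 9 were also WT entries 126 and 123, in neither GW4064 list. Entry 12, 485 bp from Rnf41, a ubiquitin ligase gene, had a ratio of 6.597 and was WT entry 29. Entry 19, 64562 bp from Map3k7 (the kinase TAK1), was WT entry 76, and was in both GW4064 lists. Entry 16 (nearest gene Gm14410) and entry 24 (Vmn2r115) were WT entries 5106 and 2039, and entries 11 (Tcp10c), 18 (in Ide, encoding insulin-degrading enzyme) and 23 (Abt1) overlapped no WT vehicle peak. The Ide peak, chr19:37297503-37297865, had a ratio of 4.597 and a q of 4.72e-05 and lay at a WT Foxa2 peak.

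Alb, encoding albumin, was the best placed hepatocyte gene of the mutant list. Entries 10 and 25 (chr5:90449663-90450422 and chr5:90451161-90451630) lay 10828 and 9475 bp from it, with ratios of 4.124 and 3.665 and q of 3.4e-07 and 0.000525. Neither overlapped a WT FXR peak with vehicle or GW4064, and both overlapped a mutant peak with GW4064. Both were in recurrent regions and overlapped LXR and PPAR peaks, and entry 10 also overlapped a WT Foxa2 peak.

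**Figure D2:**
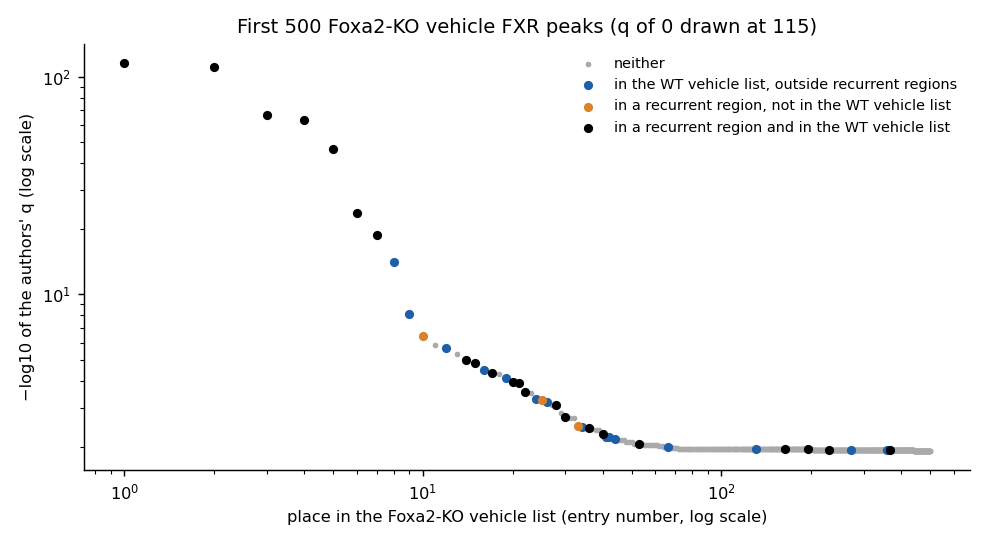
The −log10 of the authors' q (y axis, log scale) against entry number (x axis, log scale) for the first 500 Foxa2-KO vehicle FXR peaks, coloured by whether the peak is in a recurrent region and in the WT vehicle list. Of the 28 peaks with q of at most 0.001, 23 are in a recurrent region or in the WT list, and from about entry 65 the q values lie on a plateau of grey points near 0.01.

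Leading WT peaks were wider than trailing ones, and in the mutant this held for the first 100 entries but not for the first 500. Over the whole lists width was alike, with medians of 54 bp in WT and 55 bp in the mutant, and 26.7% and 27.5% of peaks were 20 bp or less. In WT the median was 250 bp in the first 100 entries, 175 bp in the first 500 and 48 bp after entry 1000, and 0.2% of the first 500 and 28.9% after entry 1000 were 20 bp or less. In the mutant the medians were 219.5, 33.5 and 61 bp, and the first 500 held more peaks of 20 bp or less (40.8%) than the entries after 1000 (22.4%). Library inserts were about 150 bp, per the labels' protocol. Peaks narrower than one insert made up 37% of the first 500 in WT and 78.4% in the mutant, and 89.0% and 89.1% of the whole lists. A count over a whole list is thus mostly a count of peaks narrower than a library insert.

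**Figure D3:**
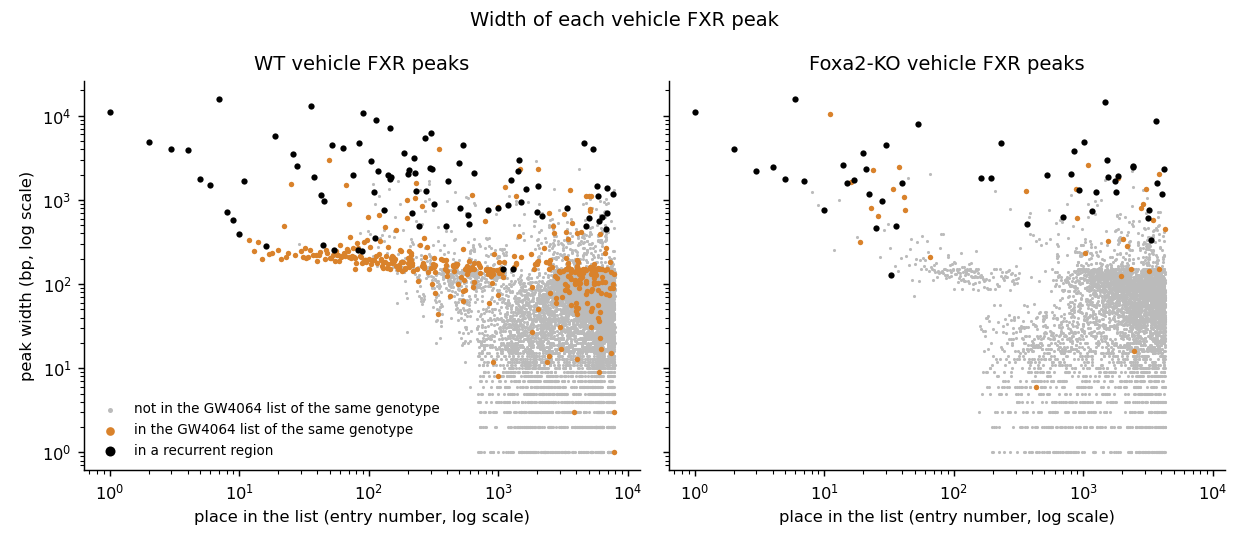
Width in bp (y axis, log scale) against entry number (x axis, log scale) for every vehicle FXR peak of WT (left) and Foxa2-KO (right). Orange peaks, found with GW4064 in the same genotype, form a band over the leading WT entries (median 221 bp in the first 100 outside recurrent regions) that is sparse in the mutant, and peaks of 20 bp or less begin at entry 329 in WT and at entry 157 in the mutant.

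Recurrent regions were the main ground common to both genotypes. In all 75 of the 215 held a vehicle FXR peak, 33 in both genotypes, 35 in WT only and 7 in the mutant only. They held 86 WT and 48 mutant peaks, and 41 of the 72 WT peaks found in the mutant. Their peaks were broad, with a median of 1494 bp in WT and 1835.5 bp in the mutant. The leading ones were at 1600014C10Rik (WT entries 1 to 3), at chr17:39842893-39846830 (WT entry 4, 461699 bp from any mutant vehicle peak) and in Sfi1 (WT entry 7). The Ugt1a cluster, which encodes bilirubin and drug conjugating enzymes, had a 13199 bp WT peak (entry 36), and the nearest mutant vehicle peak (entry 3623) began 779 bp beyond its end. In mutants given GW4064 a 13199 bp peak lay at the same place (chr1:88211488-88224686, entry 9, q of 8.12e-17), so the region is not absent from the mutant.

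Outside recurrent regions 31 WT peaks were in the mutant list too. Of these 14 were also in an LXR or PPAR list and 17 in neither, 10 were in the WT GW4064 list and 14 in the mutant GW4064 list, and 7 lay in or within 10 kb of a gene. The best placed in both lists were at Rnf41, Map3k7, Gm1988, the Gm15501 cluster and Gm10573 (WT entry 137, mutant entry 34, 273637 bp away). Bex3, 1815 bp from a peak on the X chromosome that was WT entry 151 and mutant entry 66, and Gm39469, which held a peak on chromosome 9 that was WT entry 232 and mutant entry 41, came next. Gm10573, on chromosome 4, was the nearest gene of 4 of these WT peaks (entries 49, 137, 259 and 953). No member of the bile acid and FXR gene lists was beside any of the 31. With only 7 of them near any gene, that is no result about these lists.

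A larger share of WT than of mutant FXR peaks lay at Foxa2 peaks. In the WT vehicle list 127 peaks (1.61%, 1.36 to 1.91) overlapped a Foxa2 peak of WT mice given vehicle, and in the mutant list 29 (0.677%, 0.472 to 0.971). Without recurrent regions these were 79 of 7797 (1.01%) and 3 of 4236 (0.0708%). Of the 72 leading WT peaks outside recurrent regions 14 (19.4%, 12.0 to 30.0) were at a vehicle Foxa2 peak and 41 (56.9%, 45.4 to 67.7) at one of any WT Foxa2 list. Of the 79 mutant peaks of the same ranks 1 (1.27%, 0.224 to 6.83) and 5 (6.33%, 2.73 to 14.0) were. The Foxa2 lists come from WT mice only, so they mark places and not Foxa2 binding in the mutant.

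Leading WT peaks were also more often at open chromatin that GW4064 increased in WT. Regions gained in ATAC-seq with GW4064 over vehicle covered 24 of the 72 (33.3%, 23.5 to 44.8) when called in WT and 9 (12.5%, 6.72 to 22.1) when called in the mutant. Of the 79 leading mutant peaks 2 (2.53%) and 6 (7.59%) were in them. For regions called in the mutant the shares, 12.5% and 7.59%, were closer to each other than for those called in WT. The intervals cover counting over peaks only, so they do not decide between the genotypes. Start sites were within 1000 bp of 14 of the 72 WT peaks (19.4%) and of 3 of the 79 mutant peaks (3.80%).

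Genes were then counted as having a peak where its centre was in the gene or within 10 kb. Of 21887 protein-coding genes 2955 (13.5%) had one in WT, 1715 (7.84%) in the mutant and 581 (2.65%) in both. The genes in both were 19.7% of the WT genes and 33.9% of the mutant genes. Their peaks were seldom the same, however: 26 of the 581 genes had a WT peak that overlapped a mutant peak, 8 of them outside recurrent regions. Genes with a peak in both were long, with a median length of 207.8 kb against 51.7 kb for genes with a WT peak, 62.3 kb with a mutant peak and 17.2 kb for all genes. Within the first 500 peaks 319 genes (1.46%) had one in WT and 215 (0.982%) in the mutant, with 23 in both.

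Some direct FXR targets had leading WT peaks. Their list, like the others, was chosen with earlier results of these data known, so its counts describe and do not test. Of 15 FXR regulators and feedback genes 4 had a WT vehicle peak (26.7% against the 13.5% of all genes), all of them among the first 500 entries, where 1.46% of all genes had one. A mutant peak was at 0 of the 15, a count near the 7.84% of all genes and therefore no result about these genes. Nr0b2, the repressor SHP, had entries 102 (chr4:133557457-133557730, 907 bp from the gene), 183 (chr4:133552980-133553160, 306 bp before the start site) and 1122. The first 2 lay at WT Foxa2 peaks and were entries 47 and 2046 with GW4064. The closest mutant vehicle peak was 2050.67 kb from entry 102. Mafg, encoding a small Maf repressor that acts on bile acid synthesis genes, had entry 39 (chr11:120630637-120630858, in the gene), which was entry 37 with GW4064 and 569.7 kb from a mutant peak. Sqstm1, the autophagy receptor p62, had entry 31 (chr11:50197622-50197829), 2427 bp from its body and inside the neighbouring gene Mrnip. Osgin1, an oxidative stress response gene, had entry 81 (chr8:119430265-119430568) and the trailing entry 5902. The nearest mutant peaks were 364.2 and 339.7 kb from the leading peaks of these last genes. In the same list Nr1h4 itself, Rxra, Fgfr4, Klb, Nr5a2, Ppara, Fgf21, Sdc1, Zfp36l1, Lpin1 and Ahcy had no vehicle peak in either genotype.

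Of 15 bile acid and lipid transporters 5 had a WT peak (33.3% against the 13.5% of all genes), 2 of them within the first 500 entries. A mutant peak was at 0 of the 15, again near the 7.84% of all genes. Slc51b had entry 142 (chr9:65422891-65423064) over the promoter printed above, which was entry 104 with GW4064, and no mutant peak within 1576.9 kb. Atp8b1, encoding the canalicular flippase FIC1, had entry 289 (chr18:64661294-64661434), 92 bp beyond the gene's edge and at a WT Foxa2 peak, which was entry 57 with GW4064, and also entry 4816. The other 3 transporters had narrow or late peaks that were not found with GW4064. Abcb4, the phospholipid floppase, had an 8 bp peak at entry 1988, Slco1b2, an uptake transporter, a 150 bp peak at entry 3654, and Slco1a4, another uptake transporter, a 5 bp peak at entry 6432. Abcb11, the bile salt export pump, had its nearest WT vehicle peak 49.1 kb away and its nearest mutant peak 229.1 kb away. Slc51a, the partner subunit of Slc51b, had no vehicle peak within 100 kb in either genotype.

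Bile acid synthesis genes had no more peaks than other genes. Of 16 genes 2 (12.5%) had a WT peak and 1 (6.25%) a mutant peak, near the 13.5% and 7.84% of all genes. Akr1d1, the steroid 5-beta-reductase, was the only member of the 3 lists with a peak in both genotypes, but at places 11.4 kb apart: WT entry 451 (chr6:37540195-37540338, entry 251 with GW4064) and a 23 bp mutant peak at entry 2179 with a q of 0.0139. Akr1c6, a hydroxysteroid dehydrogenase, had a 26 bp WT peak at entry 2016. Cyp7a1, the rate-limiting enzyme, had its nearest vehicle peaks at 194.6 kb in WT and 420.9 kb in the mutant. For Cyp8b1, which sets the share of cholic acid, they were at 650.3 and 1042 kb.

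Over these 3 lists 11 genes had 15 WT vehicle peaks. Of these 0 overlapped a mutant vehicle peak, near the 0.913% of all WT peaks and therefore no result about these genes. A WT peak with GW4064 overlapped 8 of the 15, and a mutant peak with GW4064 0. Outside recurrent regions 169 of 445 WT peaks in the first 500 entries overlapped a WT peak with GW4064, and 18 a mutant one. The 8 member peaks in the first 500 entries were the same 8 that were found with ligand, and 7 of the 15 were at a WT Foxa2 peak. The 1 mutant peak, that of Akr1d1, was in no other FXR list.

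Genes of lipid, glucose and plasma protein lists had single leading sites. Scarb1, the HDL receptor, had 3 WT peaks in the gene, at entries 171, 2478 and 2958, the first 2 found with GW4064 as entries 125 and 370. Slc2a2, the hepatic glucose transporter GLUT2, had entry 262, which was entry 230 with GW4064. The C3 promoter held entry 73 (entry 93 with GW4064), 50.7 kb from the nearest mutant peak. Ass1, a urea cycle gene counted below among hepatocyte genes, had entry 56, 5472 bp away, with Hmcn2 nearer at 4060 bp. By count, beside 13.5% of all genes in WT and 7.84% in the mutant, the lipoprotein list had 4 of 24 genes with a WT peak (16.7%) and 1 with a mutant peak (4.17%). The glucose list had 3 (23.1%) and 1 (7.69%) of 13, and the plasma protein list 3 (10.3%) and 1 (3.45%) of 29. The other WT members included Lipc, Srebf2, Ppargc1a, Fbp1 and Serpinc1, all of these beyond entry 2000, and the mutant members were Vldlr (entry 3980), Fbp1 (entry 1614, 1.8 kb from WT entry 5023) and Alb. The detoxification list, below both shares, had 2 of 26 genes with a WT peak (7.69%), Ugt1a1 in its recurrent region and Por, encoding cytochrome P450 reductase, at entry 1005 (entry 144 with GW4064), and 1 with a mutant peak (3.85%).

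Liver transcription factors had 7 of 29 genes with a WT peak (24.1%) and 1 with a mutant peak (3.45%), against 13.5% and 7.84% of all genes. Gata4 (entry 208, at a WT Foxa2 peak), Klf9, a glucocorticoid-responsive factor (entry 214, 5447 bp before its start site), and Nr1i2, the xenobiotic receptor PXR (entry 360), were found with GW4064 as entries 157, 16 and 41. The other WT members had late peaks that were not found with GW4064: Onecut2 (entry 2522), Rxrg (entry 4777), Tead1 (entry 5156) and Creb3l3 (entry 7333). Klf9 was the one with a mutant peak, a 35 bp peak at entry 2735 that lay 40.2 kb from the WT site. The clock list was near those shares: 3 of 20 genes (15%) had a WT peak, among them Usp2 at entry 17 and Arntl at entry 2848, and 2 (10%) a mutant peak, Cry1 with 3 peaks of 7, 150 and 12 bp and Dbp with one of 16 bp.

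Over all 14 lists 41 genes had 52 WT vehicle peaks. Of these 0 overlapped a mutant vehicle peak, near the 0.913% of all WT peaks and therefore no result about the members. A WT peak with GW4064 overlapped 22, of which 17 were in the first 500 entries. Outside recurrent regions 169 of 445 WT peaks in those entries did so. The 13 genes with a mutant peak had 15, of which 1 overlapped a WT vehicle peak, beside 1.61% of all mutant peaks. It was that at Ugt1a1, which overlapped the neighbouring WT entry 91. Defining genes of the tissue and of other liver cells had peaks about as often as all genes (13.5% in WT, 7.84% in the mutant), with at most 2 genes per list and genotype. Among 12 hepatocyte genes 2 had a WT peak (Ass1 and Cps1, 16.7%) and 2 a mutant peak (Alb and Cps1, 16.7%). Kupffer cell genes had 1 (8.33%) and 2 (16.7%) of 12, sinusoidal endothelial genes 2 (16.7%) and 1 (8.33%) of 12, stellate genes 1 (8.33%) and 0 of 12 and cholangiocyte genes 2 (20%) and 1 (10%) of 10. Of these other cell types only Reln in WT (entry 399) and a 6 bp peak at Sox9 in the mutant (entry 472) were in the first 500 entries. The shares of cell types in the livers cannot be read from peaks and were not tested.

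**Figure D4:**
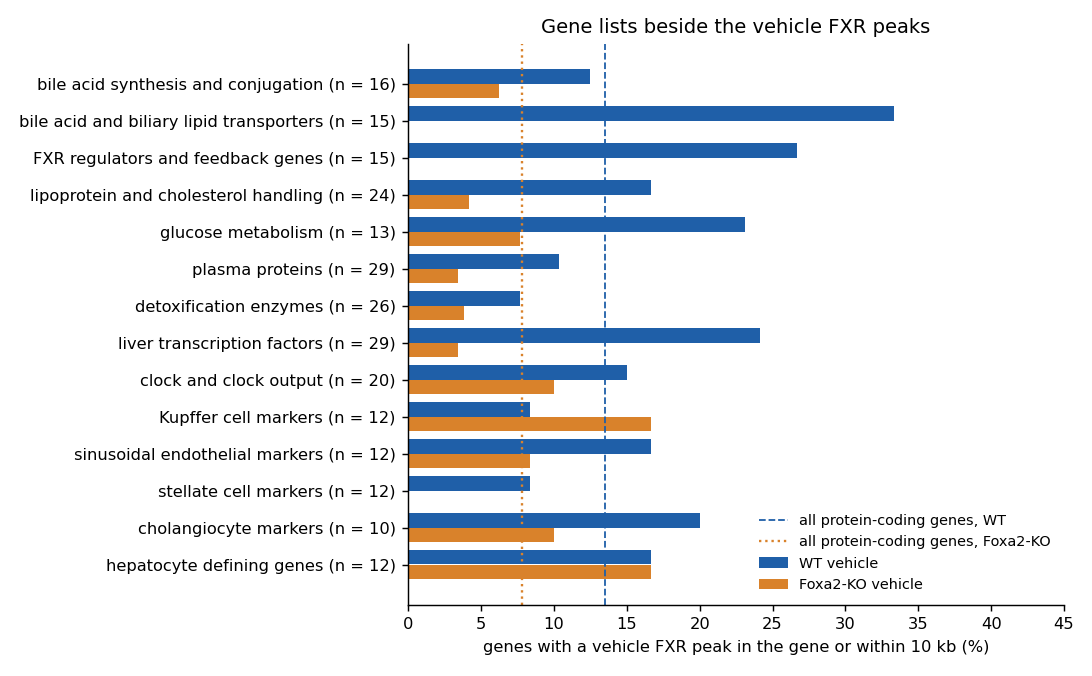
Percent of the genes of each list (y axis, with the number matched) that had a vehicle FXR peak in the gene or within 10 kb (x axis), in WT (blue) and Foxa2-KO (orange), with all protein-coding genes as lines at 13.5% and 7.84%. Transporters and FXR regulators reach 33.3% and 26.7% in WT and 0 in the mutant, where lists of this size would hold about 1 gene at the level of all genes.

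The lists differed in how many leading peaks lay at members, which were chosen with earlier results of these data known. At members of the 14 lists the WT list had 18 peaks within its first 500 entries, 17 of which were found again with GW4064. Of all genes 1.46% had a WT peak and 0.982% a mutant peak within those entries. The mutant list had 2 within its first 500, those of Alb and Sox9. That number is near the share of all genes and therefore no result about the members. The Alb peak was found again in mutants given GW4064.

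**Figure D5:**
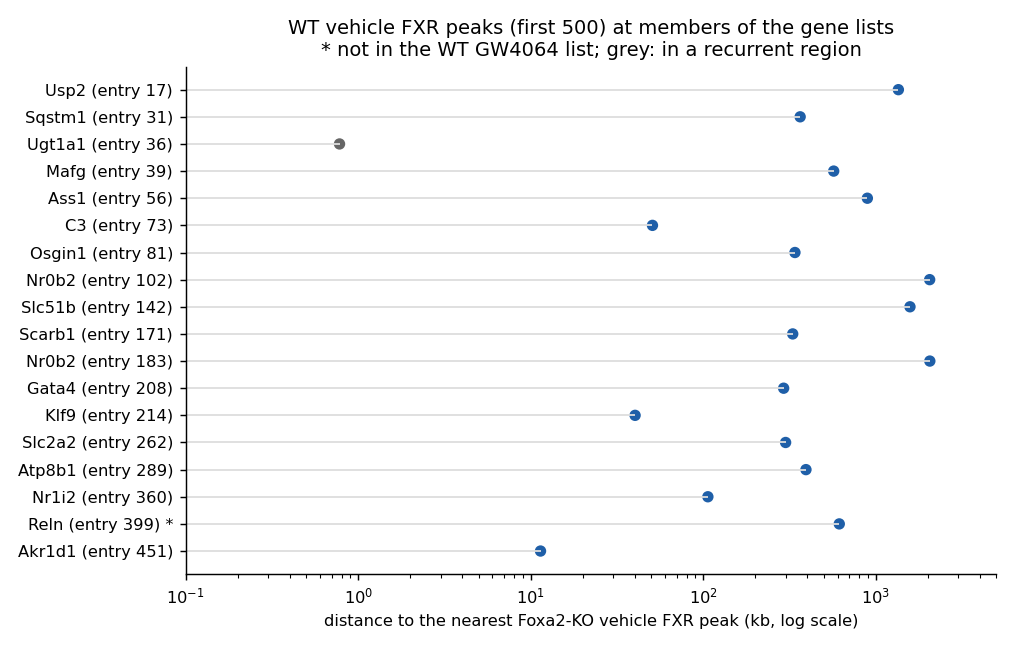
Distance in kb (x axis, log scale) from each of the 18 WT vehicle FXR peaks within the first 500 entries at members of the gene lists (y axis) to the nearest Foxa2-KO vehicle FXR peak. All lie to the right of 0, from 0.779 kb at Ugt1a1 in a recurrent region and 11.4 kb at Akr1d1 to over 2050 kb at Nr0b2. Among all 444 WT peaks of these ranks outside recurrent regions 13 overlapped a mutant peak, and the median distance was 202.8 kb. The absence of overlap is therefore no result about the members.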

How the data were processed

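FXR ChIP-seq was analysed from vehicle-treated WT and Foxa2-KO livers. Libraries were sequenced on an Illumina NextSeq 500 per the labels' protocol. Reads were aligned with BWA to mm10 per the submitters' processing notes, which give no versions. Peaks were called against input with PeakSeq, per the series' design text, and whether lists shared an input is not given in the sources used here. The authors deposited peak positions, 1 list per group, and for the mutant lists an enrichment ratio (fold over control), a −log10 of p (not used) and a q-value per peak. Blank entries of the mutant list were dropped, and positions were made 1-based. No read counts were used, so depth is unknown.

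Overlap meant at least 1 shared base. Genes were 21887 protein-coding RefSeq genes, tested with a window of 10 kb from the peak centre. Exon and intron annotation was not used here. Promoter windows (21263, of 17492 genes) were RefSeq GRCm38.p6. No test was run between lists, because each genotype had 1 pooled list. The genes named were all members of the bile acid and FXR lists with a peak, the 4 best placed members of the other lists, and the nearest genes of the first 10 peaks outside recurrent regions, the first 3 inside them, and up to 20 peaks found in both genotypes. A few genes that this rule names are not reported here. Members and lists were chosen with earlier results of these data known. Overlap, gene window and motif steps were tested on simulated data. Distances, rank limits, widths, q and recurrent regions were varied as alternatives. Scripts ran in python 3.11.15 with pandas 2.3.3 and numpy 2.4.6, intervals came from scipy 1.17.1, and figures from matplotlib 3.10.9.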

Additional observations from a re-analysis of the deposited data

How the results depend on the processing

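No paired analysis was possible because each genotype had 1 list called on pooled libraries, and for the same reason no replicate could be left out. Joining peaks up to 200 bp apart left every overlap within its interval. Percentages rose when only better placed or wider peaks were counted. WT peaks found in the mutant made up 0.913%, and 9% of the first 500, 20% of the first 100 (a limit chosen after seeing the data), 3.11% of peaks of 100 bp or wider, 0.398% without recurrent regions and 0.279% against mutant peaks with q of at most 0.001. Mutant peaks found in WT made up 1.61%, and under the same settings 7.4%, 30%, 5.32%, 0.708% and 75%, the last over 28 peaks. WT peaks at WT vehicle Foxa2 peaks made up 1.61%, and 13.6%, 39%, 5.46% and 1.01% in that order, q not applying. Mutant peaks there made up 0.677%, and 3%, 13%, 2.34%, 0.0708% and 39.3%. A window of 50 kb gave 6095 genes in WT, 3577 in the mutant and 1462 in both, the first 500 peaks 319, 215 and 23, and WT cut to the length of the mutant list 1866. With 5 kb or without recurrent regions all gene counts stayed within 1.5 times. Absence from the mutant list is limited by unknown depth.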

Other observations

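The share of the 2 vehicle lists on each chromosome was alike for most chromosomes. Chromosome 9 held 477 WT peaks (6.05%) and 162 mutant peaks (3.78%), and chromosome X 81 (1.03%) and 29 (0.677%).

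Predicted genes (symbols in Gm, LOC or Rik), which are 8.63% of protein-coding genes, were nearest to 10 of the first 100 WT peaks and 19 of the first 100 mutant peaks. After entry 1000 they were nearest to 5.70% and 5.69%. Olfactory, vomeronasal and pheromone genes were nearest to 6 and 7 of the first 100.

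Abt1, an activator of basal transcription, had 3 mutant peaks within 17 kb among the first 50 entries (23, 29 and 47), at 16729, 7972 and 14005 bp. None overlapped a WT vehicle peak, and the nearest was 9649 bp from entry 23.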
